A study of Mus musculus with 12 samples.

Results

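Of the 10351 distinct SOX2 regions called in asynchronous mouse embryonic stem cells, 2863 (27.7%, exact 95% interval 26.8 to 28.5%) lay inside protein-coding genes of at most 200 kb. A region was placed here when its midpoint fell inside a RefSeq gene span, more than 1 kb from the end of any protein-coding gene, and when the longest gene around it, its host, was no longer than 200 kb. These intragenic regions occupied 2206 host genes, 12.2% of the 18126 genes up to 200 kb that offer sequence meeting this rule. They were chosen by position alone, and the lists hold no binding score.

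SOX2 ChIP-seq was carried out in E14, a single mouse embryonic stem cell line. There were 4 groups of 3 replicates. Mitotic ChIP and Mitotic Input came from cells held overnight in nocodazole, then fixed, stained and sorted as H3S10p-positive. Asynchronous ChIP and Asynchronous Input came from unsynchronised cells. All 12 libraries came from cells grown with leukemia inhibitory factor, 3 μM CHIR99021 and 0.8 μM PD184352, and the ChIP used the Sox2 Y-17 antibody. Peaks had been called once per condition, with replicates pooled. The mitotic list held 84 regions and the asynchronous list 10351 after repeated rows were merged, with q-value tags read as 0.05 and 0.01. The lists hold no expression values, so the cell type could not be checked against markers. Counts and widths have no replicate error, and sequencing depth is unknown. No test between conditions or groups of regions was possible, and the intervals below cover counting error only.

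SOX2 is a high-mobility-group transcription factor that bends DNA at a short A/T-rich motif and often binds beside POU5F1 (OCT4), which recognises an octamer. In pluripotent cells many of its sites are enhancers, and enhancers frequently sit within the introns of the gene they control or of a neighbour. The annotation used here gave gene spans without exons, so introns and exons were not separated. Coordinates are on mm10 (GRCm38) and count from 1.

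Most intragenic regions lie in sequence that was not at hand, but 69 (2.41%, exact 95% interval 1.88 to 3.04%) overlapped a RefSeq transcript-start window, the 250 bases before and 50 bases after a start. Windows were at hand for the chromosomes of 2781 of the intragenic regions. Not every gene had one. The host of 593 intragenic regions had no window, so overlap with a start of that host could not be found. Of the 69, 51 overlapped a start of their own host, inside the gene, and 21 overlapped a start of a noncoding gene. Midpoints lay more than 1 kb from any gene end, but some only just, as in Atp5g3 (1.00 kb) and Plppr2 (1.02 kb). The start itself was held by 34. Such windows made up 1.46% of all intragenic region bases, against 0.258% of the sequence where an intragenic region could fall. Conversely, 75 of 5334 internal windows (1.41%) were overlapped by an intragenic region, and 512 of all 32851 windows by any asynchronous region.

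Sequences of the overlapped stretches are shown for 5 of these sites, read 5′ to 3′ along the transcript (RefSeq, GRCm38.p6). They were picked after the sequences were seen, for the motifs they hold, and support no statement on frequency. Capitals mark the SOX heptamers NNCAANG, in which each N is A or T (8 heptamers), on either strand. Igf1 encodes insulin-like growth factor, Apoe the lipid carrier apolipoprotein E, Lpar1 a lysophosphatidic acid receptor and Prickle1 a planar cell polarity protein. The stretches lay at chr10:87860919-87861160 (plus strand), chr7:19699168-19699408 (minus), chr4:58499354-58499653 (minus) and chr15:93519471-93519770 (minus). The Larp7 stretch, chr3:127544839-127545102 (plus), surrounds the start of the noncoding RNA Gm51018.
Igf1: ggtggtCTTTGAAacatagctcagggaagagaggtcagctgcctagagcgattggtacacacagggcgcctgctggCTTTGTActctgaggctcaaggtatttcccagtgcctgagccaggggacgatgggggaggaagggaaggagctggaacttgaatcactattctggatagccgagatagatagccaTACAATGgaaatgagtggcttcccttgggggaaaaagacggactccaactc
Apoe: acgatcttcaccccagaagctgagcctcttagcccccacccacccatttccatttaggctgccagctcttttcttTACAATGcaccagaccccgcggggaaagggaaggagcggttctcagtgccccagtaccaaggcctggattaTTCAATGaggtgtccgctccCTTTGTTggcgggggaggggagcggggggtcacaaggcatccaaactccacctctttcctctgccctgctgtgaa
Lpar1: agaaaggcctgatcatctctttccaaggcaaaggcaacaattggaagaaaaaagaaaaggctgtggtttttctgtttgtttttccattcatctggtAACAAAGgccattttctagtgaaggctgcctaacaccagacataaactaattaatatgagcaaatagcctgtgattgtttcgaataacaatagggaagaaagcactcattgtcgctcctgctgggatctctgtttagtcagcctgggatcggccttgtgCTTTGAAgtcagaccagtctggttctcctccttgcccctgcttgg
Prickle1: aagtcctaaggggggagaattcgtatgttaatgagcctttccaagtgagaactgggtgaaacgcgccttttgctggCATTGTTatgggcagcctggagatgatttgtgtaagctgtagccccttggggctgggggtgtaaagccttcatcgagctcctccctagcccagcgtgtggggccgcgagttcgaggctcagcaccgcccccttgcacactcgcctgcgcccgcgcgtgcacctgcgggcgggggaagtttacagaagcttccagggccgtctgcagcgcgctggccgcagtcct
Larp7 (Gm51018): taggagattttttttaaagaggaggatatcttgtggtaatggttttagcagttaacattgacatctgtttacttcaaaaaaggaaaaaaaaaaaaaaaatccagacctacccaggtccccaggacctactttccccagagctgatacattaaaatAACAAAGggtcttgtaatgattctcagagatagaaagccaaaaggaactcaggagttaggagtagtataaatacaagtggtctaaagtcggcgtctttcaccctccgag

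The Apoe region, 241 bp wide, lay entirely within its window and held 3 heptamer matches, and the overlapped stretch of the Igf1 region also held 3. Lpar1 had 2 matches, and Prickle1 and Larp7 had 1 each. At a pair of other internal starts the octamer core ATGCAAA, capitalised on either strand in the next sequences, was repeated. Plppr2, a lipid phosphatase-related membrane protein, had 4 matches at chr9:21936760-21937035 (plus), and the zinc finger gene Zfp428 had 2 at chr7:24506837-24507136 (plus).
Plppr2: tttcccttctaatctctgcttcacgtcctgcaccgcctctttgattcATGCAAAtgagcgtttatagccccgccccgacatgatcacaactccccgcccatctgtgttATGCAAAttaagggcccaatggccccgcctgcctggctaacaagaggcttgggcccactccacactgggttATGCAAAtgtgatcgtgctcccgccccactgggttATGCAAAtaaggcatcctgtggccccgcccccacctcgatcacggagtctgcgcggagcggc
Zfp428: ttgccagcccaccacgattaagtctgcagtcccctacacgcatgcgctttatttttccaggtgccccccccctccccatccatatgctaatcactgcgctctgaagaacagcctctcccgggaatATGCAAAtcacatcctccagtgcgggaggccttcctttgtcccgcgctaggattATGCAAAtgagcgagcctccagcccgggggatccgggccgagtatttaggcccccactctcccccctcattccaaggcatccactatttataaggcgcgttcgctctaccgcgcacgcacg

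Over whole windows of 300 bases, a SOX heptamer was present in 36 of the 77 windows overlapped by an intragenic region (46.8%, exact 95% interval 35.3 to 58.5%). It was present in 23.5% (22.4 to 24.7%) of the 5259 internal windows that no intragenic region overlapped and in 24.6% of all 32851 windows. Windows overlapped only by other asynchronous regions held one in 41.8% (182 of 435, 37.2 to 46.6%). These heptamers were chosen after seeing the data. The narrower core of the original plan, AACAATG on either strand, was in 6 of the 77 windows (7.79%, 2.91 to 16.2%), 3.18% of internal windows without overlap and 11.3% (8.45 to 14.6%) of windows of other asynchronous regions. ATGCAAA was present in 10 of the 77 (13.0%, 6.41 to 22.6%), against 4.77% of internal windows without overlap and 4.63% of all windows. Windows of other asynchronous regions held it in 28 of 435 (6.44%, 4.32 to 9.17%), an interval that overlaps that of the 77. Median GC content was 55% in the 77 windows and 53% in the internal windows without overlap. A heptamer and ATGCAAA can share bases. The composite of a SOX and an octamer site, CATTGT followed after 1 base by ATGCAA on either strand, was in 0 of the 77 windows and in 4 of all windows, 3 of them among the 435 of other asynchronous regions. This search used 1 core and 1 spacing only, so other pairings were not counted. In Plppr2, for example, the heptamer CTTTGAT stood just before the first ATGCAAA. All these counts are matches of letters in promoter windows and say nothing of the other intragenic regions.

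The region in Larp7, which encodes a 7SK RNA-binding protein, also stood 125 bp upstream of the miR-302/367 cluster, microRNAs abundant in embryonic stem cells that lie inside this gene on the opposite strand. It was 505 bp wide, at chr3:127544598-127545102. The hairpins of Mir302b, Mir302c, Mir302a, Mir302d and Mir367 began 125, 260, 393, 521 and 630 bp beyond its end. Mature arms of the cluster are shown because their seeds, bases 2 to 8 in capitals, set their targets.
mmu-miR-302b-3p: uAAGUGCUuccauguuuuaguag
mmu-miR-302d-3p: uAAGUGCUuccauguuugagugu
mmu-miR-302c-3p: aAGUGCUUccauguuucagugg
mmu-miR-367-3p: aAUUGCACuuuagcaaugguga

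In these entries, miR-302b-3p and miR-302d-3p share the seed AAGUGCU, miR-302c-3p has AGUGCUU and miR-367-3p has AUUGCAC. Other microRNA hairpins close to an intragenic region were Mir135b in Lemd1, 12 bp from a 363 bp region at chr1:132197713-132198075, and Mir128-2 in Arpp21, which a 282 bp region at chr9:112118362-112118643 overlapped by its last bases. Mir128-2 gives miR-128, a neural microRNA. A further hairpin, Mir6352, lay 85 bp from a region in Epha4.

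The median intragenic region was 280 bp wide (quartiles 222 and 373 bp), against 293 bp (228 and 386 bp) among the other asynchronous regions. Wider than 500 bp were 223 intragenic regions (7.79%), against 9.13% of the others. The smallest width of the list, 183 bp, was that of 140 intragenic regions (4.89%), against 4.27% of the others. The widest lay on Sox2 itself and covered most of that short gene (2061 bp, 5 merged entries). Its midpoint was 1.06 kb from the gene's nearer end, close to the limit of the rule. After it came regions in Cdx2, the trophectoderm homeobox gene (1186 bp), Pigl, an enzyme of GPI anchor synthesis, and Vangl1, a planar cell polarity gene (1137 bp each). Regions in Svil, an actin-binding protein, Crtac1 and Garem1, an adaptor of growth factor signalling, measured 1125, 1017 and 1015 bp. Epp13 (941 bp), Rdh10, a retinol dehydrogenase (899 bp), and Cry2, a circadian clock repressor (889 bp), completed the 10 widest. Epp13 and Apobec3, a cytidine deaminase (829 bp), had 3 merged entries each.

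Density stayed near one level across host lengths above 10 kb. The intragenic class had 5.01 regions per Mb (95% Poisson interval 4.83 to 5.20) over the 571 Mb of sequence that meets the rule. Genes longer than 200 kb had 4.12 per Mb (3.93 to 4.32), sequence 1 to 50 kb outside genes 4.55 (4.38 to 4.72) and gene ends 9.75 (9.07 to 10.5). Among host lengths, density was 6.65 per Mb (5.50 to 7.97) in genes up to 10 kb. From 10 to 20, 20 to 50, 50 to 100, 100 to 150 and 150 to 200 kb it was 4.95, 4.81, 4.89, 5.02 and 5.31 per Mb, with intervals that overlapped. Over all 20897 genes up to 200 kb, including those with no sequence that meets the rule, the share that hosted a region grew with length. It was 1.43% of genes up to 10 kb, 24.8% of those from 50 to 100 kb and 49.0% of those from 150 to 200 kb. Hosts had a median length of 58.8 kb, against 17.1 kb for other genes up to 200 kb with sequence that meets the rule.

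**Figure D1:**
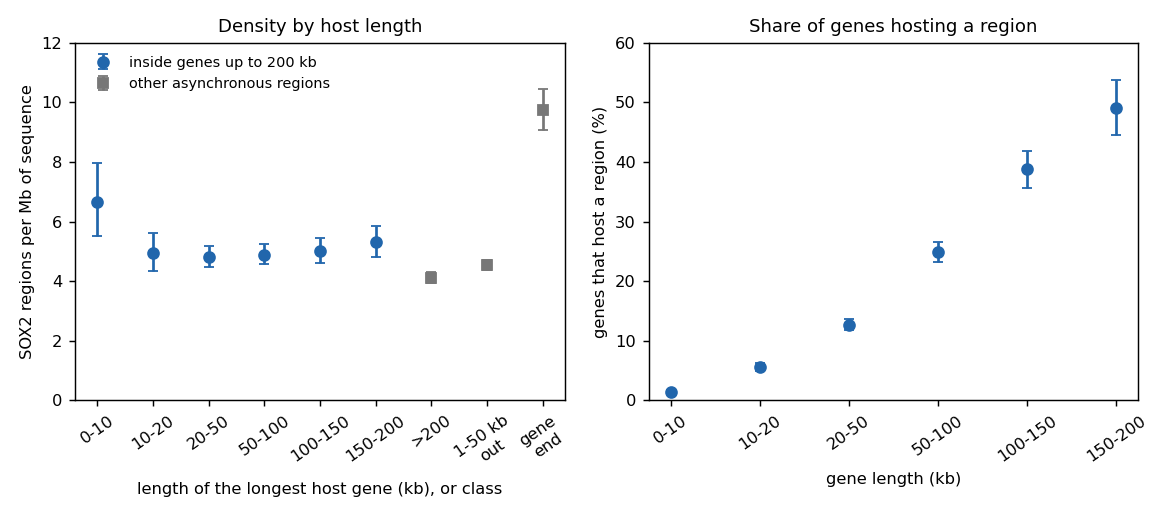
Left, asynchronous SOX2 regions per Mb of sequence (95% Poisson intervals) by length of the longest host gene in kb (blue), with longer genes, sequence 1 to 50 kb outside genes and gene ends beside them (grey). Right, share of all protein-coding genes of each length, with or without sequence that meets the rule, that host an intragenic region (%, exact 95% intervals), which climbs to 49.0% at 150 to 200 kb while density stays between 4.81 and 6.65 per Mb.

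Similar numbers of regions lay on both sides of each limit of the rule. Hosts of 190 to 200 kb held 65 regions and those just over, up to 210 kb, held 64. The longest hosts inside the limit were Morc1 (199.7 kb) and Sergef (199.7 kb), and the first outside were Pcbp3 (200.3 kb) and Pbx3 (200.6 kb). Between 1 and 1.1 kb from a gene end lay 33 midpoints and between 0.9 and 1 kb lay 27. Nearest inside were regions in St6gal1, Atp5g3 and Mroh6 (1.00 to 1.01 kb), and nearest outside were those in Cyp4f37, Clmn and Ampd3 (0.998, 0.995 and 0.990 kb). A region belonged to 2 overlapping genes in 19 cases.

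Regions were spread along the whole host. RefSeq start windows gave the strand for 1750 of 2206 hosts, which held 2270 regions as the longest gene. The median midpoint was 26.3 kb (interquartile range 9.76 to 59.0 kb) from the host's 5′ end, at 49.0% of its length. The 5′ part up to mid-length held 1155 regions (50.9%, exact 95% interval 48.8 to 53.0%) and 50.1% of the sequence. Density was 6.33 per Mb (5.54 to 7.21) in the first 10% of the length from the 5′ end and 5.25 (4.53 to 6.06) in the last 10%. Bins of 10% in between had 4.48 (3.90 to 5.11) to 5.23 (4.61 to 5.92) per Mb. By distance, it was 6.92 per Mb (5.59 to 8.48) at 1 to 2 kb from the 5′ end, 5.81 at 2 to 5 kb and 4.58 (4.13 to 5.07) at 10 to 20 kb. From the 3′ end the same distances gave 5.27 (4.11 to 6.65), 5.53 and 4.36 (3.92 to 4.84) per Mb. Beyond 20 kb both measures lay between 4.65 and 5.51.

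**Figure D2:**
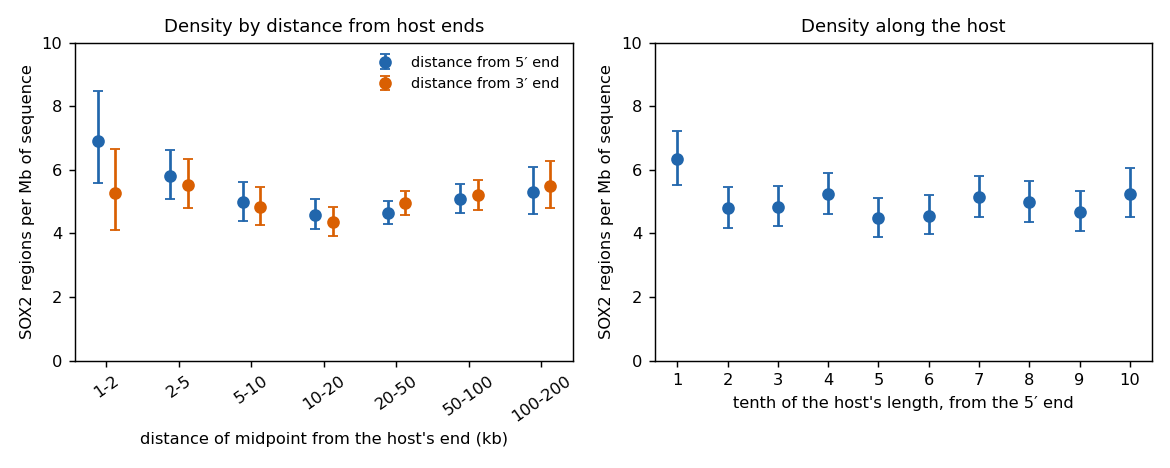
Left, intragenic SOX2 regions per Mb of sequence by the midpoint's distance in kb from the host's 5′ end (blue) or 3′ end (orange), with 95% Poisson intervals. Right, the same density in 10 equal bins of the host's length from its 5′ end. Bin 1, at 6.33 per Mb, is the highest, and the others lie between 4.48 and 5.25.

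A region at the gene's own 5′ end was rare in hosts and in other genes alike. Within 1 kb of that end a further asynchronous region lay in 54 of 1378 hosts of 1 intragenic region (3.92%, exact 95% interval 2.96 to 5.08%), 9 of 267 hosts of 2 (3.37%, 1.55 to 6.30%) and 3 of 105 hosts of 3 or more (2.86%, 0.593 to 8.12%). Genes without an intragenic region had one in 351 of 12738 (2.76%, 2.48 to 3.05%).

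At least 2 regions were hosted by 475 genes, 2.62% of the 18126. A single region was found in 1731 hosts (78.5%), 2 in 342, 3 in 87 and 4 in 35. There were 4 hosts with 5 regions, 5 with 6 and 2 with 8. The hosts of several regions held 1145 intragenic regions and had a median length of 97.2 kb. Longer hosts offer more sequence for a region to fall in.

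Arid5b, a DNA-binding cofactor of histone demethylation, held 8 regions over 165 kb of its 186.8 kb. From the 5′ end they lay at 17.0, 19.5, 49.0, 113.6, 122.3, 141.7, 164.2 and 181.5 kb. The region at 181.5 kb, 5.36 kb from the 3′ end, was the widest, at 843 bp (chr10:68097460-68098302). Myo10, an unconventional myosin of filopodia, also held 8, all between 70.1 and 151.3 kb from its 5′ end, so that the first 70 kb had none. The widest, 572 bp, was the farthest (chr15:25773607-25774178). A group of 5 lay between 131.6 and 151.3 kb, where neighbouring midpoints at 139.4 and 140.0 kb were split by a gap of 365 bp.

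Hosts of 6 regions encode proteins of several kinds. Fat1, a giant atypical cadherin, had them from 4.49 to 91.0 kb of its 119.2 kb, with the widest, 566 bp, at 46.4 kb (chr8:44979240-44979805). Epha4, an ephrin receptor, had 3 at 10.1 to 18.1 kb and 3 at 61.0 to 74.4 kb. Nxn, a thioredoxin-family inhibitor of Dishevelled, had them from 41.5 to 138.8 kb, and Nmnat2, an NAD synthesis enzyme of axons, from 64.2 to 140.7 kb. Trak1, an adaptor for mitochondrial transport, had 5 within 63.1 kb of its start and 1 at 155.5 kb. The narrowest regions of these hosts measured 187 to 241 bp and the widest 367 to 566 bp.

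With 5 regions each came Plpp3, a lipid phosphate phosphatase, Crtac1, an extracellular matrix protein, Sptbn1, a spectrin, and Esrrb, the orphan nuclear receptor of naive pluripotency. In Esrrb all 5 lay in the 3′ part, from 110.0 to 143.4 kb of 160.5 kb, within 33.6 kb. Widths there were 211, 248, 470, 623 and 237 bp from 5′ to 3′. In Plpp3 they ranged from 2.06 to 66.9 kb of 75.4 kb and spanned 86.5% of its length.

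**Figure D3:**
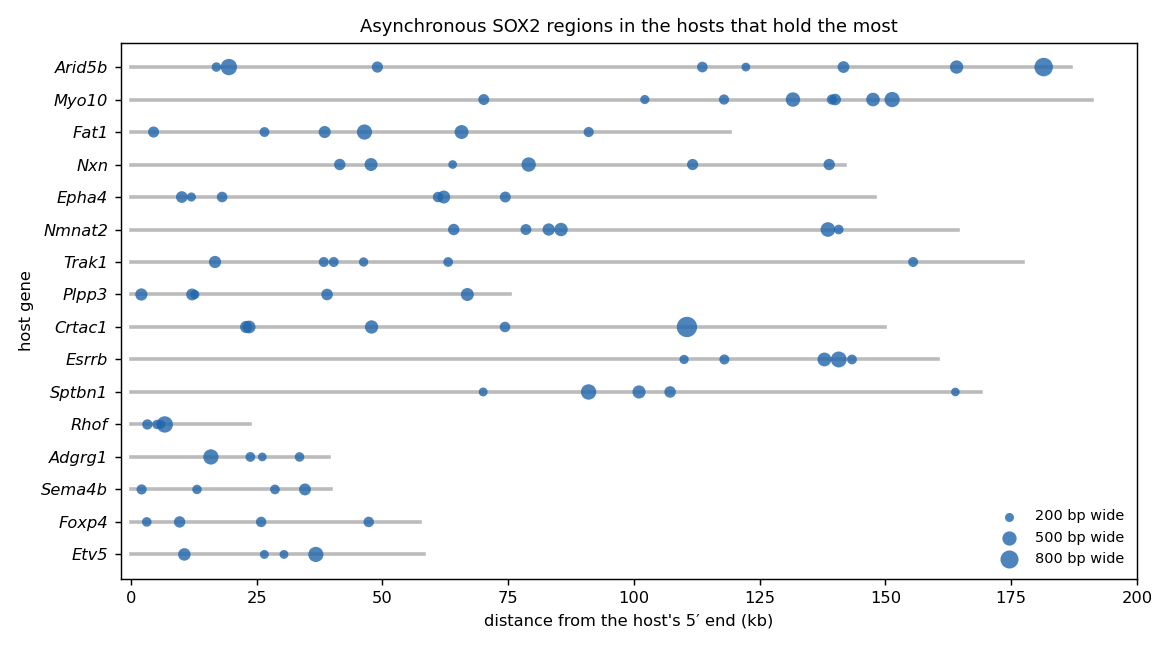
Hosts of known strand with the most intragenic SOX2 regions, drawn from the 5′ end (kb) to scale as grey lines; each blue dot is a region at its midpoint, with area proportional to width in bp. Regions of Myo10 and Esrrb start at 70.1 and 110.0 kb, and those of Arid5b span 88.3% of the gene.

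Relative to length, the 10 densest hosts of at least 3 regions were 6.90 to 59.5 kb long, and such a ranking favours short genes. Mycl, a MYC family gene of 6.90 kb, held 3 regions of 295, 339 and 630 bp between 3.19 and 5.66 kb from its 5′ end. Rhof, a small GTPase of filopodia, held 4 within 3.92 kb of its 23.6 kb, the widest 660 bp (chr5:123134765-123135424). Adgrg1, an adhesion G protein-coupled receptor, and Sema4b, a semaphorin, held 4 each in 39.5 and 39.8 kb. Etv5, an ETS factor of ERK signalling, and Foxp4, a forkhead factor, held 4 each in 58.3 and 57.5 kb. Bdkrb2, a bradykinin receptor, Hmgxb4, Tmem104 and Cnpy1 completed the 10 densest. Casq2, a calcium-binding protein of muscle, Enpp3, an ectoenzyme, and Sgce, a sarcoglycan, also held 4 regions each, in 60.1, 62.4 and 72.9 kb.

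Neighbouring regions of 1 host were separated by a median gap of 18.3 kb (interquartile range 6.26 to 36.5 kb, 673 pairs). The gap was under 5 kb in 139 pairs (20.7%) and under 1 kb in 47 (6.98%). This spacing is bounded by the length of the host, and over all neighbouring asynchronous regions of a chromosome the median was 114 kb. The closest pair lay in Septin11, a cytoskeletal GTPase, 112 bp apart (chr5:93126572-93126973 and chr5:93127086-93127466). Other close pairs lay in Plgrkt, a plasminogen receptor (125 bp), Manba, beta-mannosidase (177 bp), and Map1b, a microtubule-associated protein of neurons (188 bp). With regions under 1 kb apart counted as 1, 448 hosts had several.

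Host genes were then counted in 15 lists of genes. Of the 381 listed genes up to 200 kb that offered sequence, 106 hosted a region. The median gene of each list, like that of all genes, held 0. Lists differ in gene length, so each share, against 12.2% over all genes, is given with the density of regions, against 5.01 per Mb over all genes. The densities of the lists carry no interval, and several rest on few regions, such as 2 for housekeeping genes and 3 for fibroblast genes. The lists were drawn up with earlier results of these data known, so the counts describe them and are no test.

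Of 29 pluripotency genes, 12 hosted a region (41.4%, exact 95% interval 23.5 to 61.1%), at 23.2 regions per Mb of their sequence. After Esrrb (5) and Etv5 (4) came Tfcp2l1, a factor of naive cells, and Jarid2, a Polycomb cofactor, with 2 each. Tfcp2l1 had them 14.8 and 20.3 kb from its 5′ end and Jarid2 at 21.2 and 120.9 kb. Sox2, Tbx3, Mycn, Tdh, Sall4, Nr0b1, Zfx and Nr5a2 had 1 each. Pou5f1, Nanog, Klf4, Zfp42, Klf2, Klf5, Prdm14 and Dppa3 were among the listed genes with 0. The rule leaves out regions at gene ends and outside genes. The region in Nr5a2 was at an internal start of that gene and was 184 bp wide.

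Over the 4 signalling lists the share of hosts ran between 11.1 and 41.4%. In FGF, EGF and ERK signalling the share was 41.4% (12 of 29, 23.5 to 61.1%), at 10.2 regions per Mb. Garem1 and the receptors Fgfr2 and Fgfr1 had 2 regions each, their widest regions measuring 1015, 576 and 287 bp. For Wnt signalling it was 37.9% (11 of 29, 20.7 to 57.7%), at 8.29 per Mb, led by Tcf7l1, a transcriptional repressor at Wnt targets, with 4, and Lef1, its activating relative, with 2. Vangl1 and Vangl2, of planar cell polarity, had 1 each. Tcf7l1 had its widest region, 589 bp, 1.49 kb from its 5′ end (chr6:72787264-72787852). LIF, JAK and STAT signalling had 5 of 17 (29.4%, 10.3 to 56.0%), at 8.13 per Mb. There Lifr, the LIF receptor, held neighbouring regions of 780 and 418 bp at 25.1 and 26.3 kb, and Jak2, Pim1, Ptpn1 and Socs2 held 1 each. TGF-beta, Nodal and BMP signalling had 3 of 27 (11.1%, 2.35 to 29.2%), at 3.32 per Mb, with Acvr1b, an activin receptor, at 2 and Smad6 and Ski, inhibitors of the pathway, at 1 each.

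In the cytoskeleton, adhesion and polarity list, 12 of 29 genes were hosts (41.4%, 23.5 to 61.1%), at 10.3 regions per Mb. Cdh1, which encodes E-cadherin, had 3 regions of 260, 246 and 378 bp, and Lama1, a basement membrane laminin, had 3 of 186, 213 and 223 bp. Svil and Actn1, an actin crosslinker, had 2 each. Chromatin genes reached 36.8% (14 of 38, 21.8 to 54.0%), at 6.66 per Mb. These genes are long, with a median of 66.3 kb, as are those of the cytoskeleton list (66.9 kb) and the FGF list (57.0 kb). Of all genes from 50 to 100 kb, 24.8% were hosts. There were 2 regions each in Smarca2, a BAF ATPase, Tet2, a DNA demethylation enzyme, Arid1a, a BAF subunit, and Kdm4c, a histone demethylase. The wider region of Smarca2, 882 bp, lay 3.44 kb from its 5′ end. Metabolic and transport genes reached 31.0% (9 of 29, 15.3 to 50.8%), at 14.6 per Mb. Slc2a3, a glucose transporter, had 4 regions and Slc7a5, an amino acid transporter, had 2, while Abcg1, of cholesterol export, had 1.

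Neural genes had 8 hosts of 23 (34.8%, 16.4 to 57.3%) at 22.9 regions per Mb, among them Epha4 (6), Ptch1, the Hedgehog receptor (3), Pax6 and Notch1 (2 each). Another 7 genes of this list were longer than 200 kb and were not counted. Mesendoderm and trophectoderm factors had 7 of 25 (28.0%, 12.1 to 49.4%), at 14.4 per Mb, each with 1 region, including Cdx2, Evx1 and Gata3. The Evx1 region, 495 bp wide, was also at the start of the noncoding RNA Evx1os.

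Immune genes had 20% (4 of 20, 5.73 to 43.7%), at 7.20 regions per Mb, with 2 regions in Cd244a and 1 each in the lymphocyte genes Ikzf1, Zap70 and Runx3. Cell cycle genes had 16.7% (5 of 30, 5.64 to 34.7%), at 6.87 per Mb, with 3 in Ccnd3, cyclin D3, and 1 each in Mybl2, Cdk6, Rbl1 and Kif11. Housekeeping genes, which are short (median 7.27 kb), had 11.1% (2 of 18, 1.38 to 34.7%), Ywhaz and Actb. Their 9.86 regions per Mb rest on only 2 regions. Fibroblast genes had 10.0% (2 of 20, 1.23 to 31.7%), Col5a1 and Fn1, at 3.80 per Mb. Of 19 liver genes 0 hosted a region, which the exact interval puts at up to 17.6%.

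**Figure D4:**
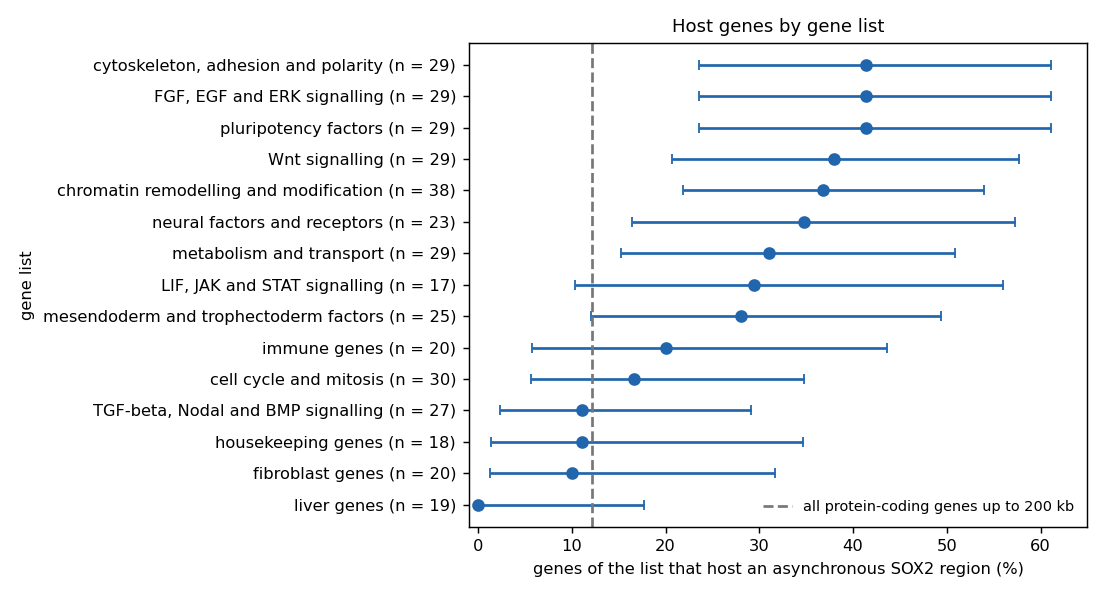
Share of the genes of each list (%, exact 95% intervals) that host an intragenic SOX2 region, among genes up to 200 kb with sequence that meets the rule (n in brackets). The dashed line marks all such genes of any length, 12.2%, and lists differ in gene length. Pluripotency, FGF and cytoskeleton lists are at 41.4% and liver genes at 0.

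Density differed among chromosomes. It was 1.51 intragenic regions per Mb on X (36 regions, 95% Poisson interval 1.06 to 2.09), against 5.18 (4.99 to 5.38) over autosomes. Chromosome 14 had the lowest autosomal value, 3.11 per Mb, and chromosome 10 the highest, 6.56, while Y had no intragenic region. E14 cells are male, and the part of X copy number in this was not tested.

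Mitotic regions were placed by the same rule. It was met by 42 of the 84 mitotic regions (50%, exact 95% interval 38.9 to 61.1%), against 27.7% (26.8 to 28.5%) of asynchronous ones. The 2 lists differ in threshold, and their depths are unknown. Each of the 42 lay in a different gene, 0.232% of the 18126. They were narrow, with quartiles of width at 106, 124.5 and 155 bp, and 10 had the smallest width of their list, 105 bp. From the 5′ end, 18 of the 33 with a host of known strand lay before mid-length (54.5%, 36.4 to 71.9%).

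Of the 42, 15 (35.7%, 21.6 to 52.0%) were in genes that also hosted an asynchronous region, and 27 were in genes that did not. Counted by gene, 15 of 2206 hosts held a mitotic region (0.680%, 0.381 to 1.12%), against 27 of 15920 other genes (0.170%, 0.112 to 0.247%). Hosts are longer, and per sequence the figures were 9.79 mitotic regions per 100 Mb (5.48 to 16.2) in hosts and 6.37 (4.20 to 9.26) in other genes, with overlapping intervals. Hosts of at least 2 asynchronous regions had 14.8 per 100 Mb (5.94 to 30.5) and hosts of 1 had 7.56 (3.26 to 14.9).

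Overlap with an asynchronous region was found for 3 of all 42 mitotic regions that meet the rule. The 9 mitotic regions inside longer genes lay at least 3.78 kb from any asynchronous region. No share over all 84 mitotic regions is given here, so the 3 of 42 cannot be set against the whole list. These 3 lay among the 15 hosts, which were selected for holding both kinds of region. In Cd244a, a receptor of natural killer cells, the mitotic region of 110 bp lay wholly inside an asynchronous one of 459 bp (chr1:171578384-171578842), 19.9 kb along a gene of 26.6 kb. In Pisd, which makes phosphatidylethanolamine, the mitotic region of 177 bp lay inside one of 459 bp (chr5:32739032-32739490), 46.3 kb along 49.3 kb. In Pde9a, a cGMP phosphodiesterase, 121 bp lay inside one of 185 bp (chr17:31463461-31463645). Cd244a and Pisd each held a second asynchronous region without a mitotic counterpart.

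In the other 12 genes the mitotic region stood apart from the asynchronous ones. The nearest asynchronous region of the host was 3.32 kb away in Mthfd1l, a mitochondrial folate enzyme, 4.71 kb in Mtss1, an actin regulator, and 5.27 kb in Rab3ip, a Rab exchange factor. In Kit, a receptor tyrosine kinase, it was 5.80 kb away. The mitotic regions of Kit and Mthfd1l both had the smallest width of their list, 105 bp. The distance was 6.52 kb in Abcc3, a multidrug transporter, and 8.18 kb in Scube1. Larger distances were seen in Gpr107 (13.8 kb), Mybl2, a cell cycle transcription factor (17.0 kb), Dclk2 (25.5 kb), Spg11 (25.7 kb), Cdk19, a Mediator kinase (35.6 kb), and Lrrfip1 (67.8 kb). Over the 15 genes the median distance was 6.52 kb, and 9 were within 10 kb. This distance is limited by the length of the host. None of the 11 hosts with 5 or more asynchronous regions held a mitotic one. Only 15 of all 2206 hosts (0.680%) did, so 11 are too few to compare.

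**Figure D5:**
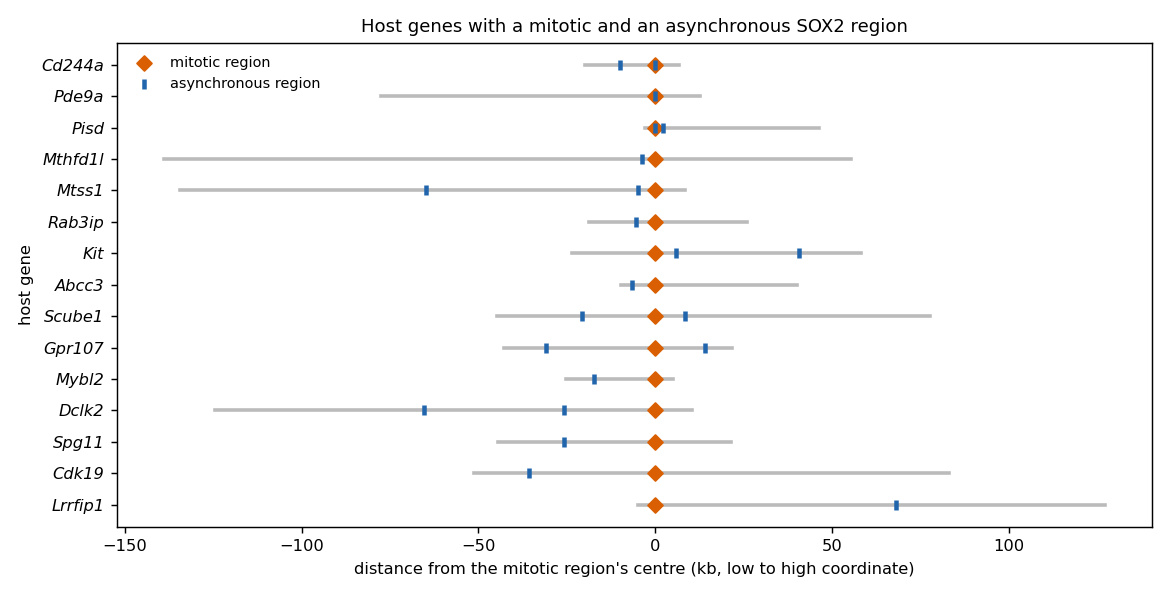
The 15 host genes that hold a mitotic SOX2 region (orange diamond, at 0) and asynchronous ones (blue bars), drawn to scale in kb from the mitotic region's centre along the gene span (grey), with the nearest pair at the top. In Cd244a, Pde9a and Pisd they coincide, and in Lrrfip1 they are 67.8 kb apart.

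Mitotic regions in the 27 genes without an intragenic asynchronous region were a median of 61.5 kb from the nearest asynchronous region, from 2.41 kb at Sowahb to 449 kb at Naip5, an inflammasome sensor of a multigene family. Among these genes were Piezo1, a mechanosensitive channel, Map3k4, a stress kinase, and Prmt3, an arginine methyltransferase, examples picked after their values were known.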

How the data were processed

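SOX2 ChIP and input DNA were sequenced from mitotic and asynchronous E14 cells, 3 libraries per group. Per the submitters' processing notes, Bowtie2 2.2.1, MACS2 and the build mm10 were used. The deposited values are starts and ends of peaks in bp (unit: other), and per the deposited names the authors called them once per condition on pooled replicates against input and took out blacklisted regions. These lists hold positions and names, with no score or read number, so depth and replicate spread are unknown.

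Here, starts were converted to count from 1, 181 repeated rows of 10532 were merged, and midpoints were placed on 21887 protein-coding gene spans of RefSeq GRCm38.p6 with Python 3.11.15, numpy 2.4.6, pandas 2.3.3 and scipy 1.17.1. Strand came from RefSeq start windows (17492 genes). Densities divide regions by all sequence that meets the same rule, and shares have exact binomial (Clopper-Pearson) and densities exact Poisson intervals at 95%. The placement was tested on simulated data. The motif search planned on genome sequence was not run, since no genome was used here, and start windows replaced it. Named genes were hosts with a mitotic region, the 20 hosts with the most regions, the 10 densest, the 10 widest regions, those of 3 or more merged entries, the 5 closest pairs, hosts at the thresholds and up to 4 hosts per list. A few genes selected this way are not reported here. Internal starts, microRNAs and other genes were chosen after their values were seen. The members and lists were chosen with earlier results of these data known. Alternatives tried were other host lengths, end distances, overlaps, merging, whole regions and wider regions only.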

Additional observations from a re-analysis of the deposited data

How the results depend on the processing

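Of 53 recomputed values over 11 results, 47 stayed within 1.5 times (counts) or within the 95% interval (other values). Some of these could not move. Every intragenic region lay wholly inside its host, and counting repeated rows one by one adds no host. The values outside the limits came from keeping only regions wider than the median of their list, which removes regions by construction. That left 1332 intragenic regions in 1145 hosts, 147 of them with several regions, with a median width of 381 bp and 2.33 regions per Mb, and 21 mitotic regions that meet the rule. The share in the first and last 10% of the host, 18.5% of intragenic regions, was 18.2% among the wider ones. Hosts up to 150 or 300 kb gave 2453 or 3407 intragenic regions. Counting 1 start window per intragenic region, chosen after seeing the data, gave SOX heptamers in 46.4% of windows. Leaving out replicates was not possible, because each list is pooled. No paired analysis was possible because the pooled lists carry no replicate values.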
